A study of Homo sapiens with 6 samples.

Results

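The last 5.53 Mb of the long arm of chromosome 21, band 21q22.3, was the stretch described here. Its members are all ATAC-seq peaks whose summit lay on chromosome 21 from position 42600000 to the chromosome end at 48129895 (hg19). There were 1140 of them among 239763 peaks in all, 633 in the list of HMGA1-silenced cells and 507 in the list of control cells. ATAC-seq uses the Tn5 transposase to cut and tag open DNA, so a peak marks a stretch where chromatin was accessible. All samples are labelled as DAMI, a leukaemia cell line of human origin for which the labels give the disease state MPN/AML. Peak positions alone did not allow the line to be verified. The series text also names SET-2 cells, and whether libraries of that line entered the lists is not given in the labels. One group held 3 samples infected with a lentivirus carrying a short hairpin RNA against HMGA1 (shHMGA1), and the other held 3 samples infected with a control lentivirus. All 6 samples thus carry a lentivirus. The hairpin, the time after infection and any drug selection are not given in the labels. For each sample 50000 cells were tagmented. Each group was given as 1 peak list with no values per sample, and read depth is unknown. With 1 list a group, the spread between samples cannot be seen and nothing is tested. The band was selected on its high ratio of shHMGA1 to control peak numbers, and widths and areas come from the same contrast, so all values below are a description.

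The protein HMGA1 shapes chromatin architecture: its AT-hook motifs grip the minor groove of AT-rich DNA and bend it. The band 21q22.3 is a Giemsa-negative band, a type that is on the whole rich in genes and in GC. In the order of RefSeq, 84 of the 239 protein-coding genes of chromosome 21 run from MX2 to the last one, PRMT2. They include the interferon-induced antiviral GTPases MX1 and MX2, the serine protease TMPRSS2, the cholesterol exporter ABCG1 and the trefoil factors TFF1, TFF2 and TFF3. Further along come U2AF1, a splicing factor mutated in myeloid neoplasms, CBS, an enzyme of cysteine synthesis, and AIRE, which drives expression of tissue antigens in the thymus. Towards the end lie ITGB2, the β2 integrin of leucocytes, ADARB1, an RNA-editing adenosine deaminase, the collagen genes COL18A1, COL6A1 and COL6A2, the centrosome protein gene PCNT, the calcium-binding protein gene S100B and the arginine methyltransferase gene PRMT2. These names give the gene content of the band only. The reference positions were on another genome build, so no peak was assigned to a gene.

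The shHMGA1 list held 126 more peaks than the control list in this band, while it was the shorter list over the genome. The ratio of shHMGA1 to control peaks was 1.25 (95% exact interval 1.11 to 1.41, which covers counting error only and treats the lists as independent). Density was 114 peaks per Mb in shHMGA1 cells and 91.7 in control cells. Peaks covered 551 kb in shHMGA1 cells and 433 kb in control cells, or 9.97% and 7.83% of the band, a ratio of 1.27. Mean width was 871 bp in shHMGA1 cells and 854 bp in control cells, so the extra covered length went with the number of peaks more than with their width. Over the whole lists the ratio of numbers was 0.886 (interval 0.879 to 0.893) and that of covered length 0.909.

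The rest of the chromosome did not share this excess. The neighbouring 8.6 Mb, from 34000000 to 42600000, held 512 shHMGA1 and 573 control peaks, a ratio of 0.894 (interval 0.792 to 1.01). Before position 42600000 chromosome 21 as a whole held 2453 shHMGA1 and 2933 control peaks, a ratio of 0.836. Among the other bands of the chromosome with peaks, ratios ran from 0.717 in 21q21.3 (436 shHMGA1 and 608 control peaks) to 0.994 in 21q22.12 (166 and 167). The band edge at 42600000 did not mark the start of the excess. In the 500 kb before it there were 17 shHMGA1 and 24 control peaks, and in the 500 kb after it 13 and 16. The last peaks outside lay 18682 bp (shHMGA1) and 5947 bp (control) from the edge, and the first inside lay 19829 and 19816 bp from it. Those first inside peaks were 505 bp wide in shHMGA1 and 726 bp wide in control cells, at summit −log10 p of 8.14 and 8.40.

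In 100-kb bins the excess was spread over many bins, though unevenly along the band. Of 56 bins, 1 held no peak in either list. Among the 55 others, 38 (69.1%) held more shHMGA1 than control peaks, 10 (18.2%) held fewer and 7 held equal numbers. Over the autosomes and X, 19.6% of the occupied bins held more shHMGA1 peaks and 45.9% held fewer. In the neighbouring 8.6 Mb, 20 of 79 occupied bins (25.3%) held more and 38 (48.1%) held fewer. The median bin of the end held 10 shHMGA1 and 8 control peaks, and the fullest bin, from 47.3 to 47.4 Mb, held 35 and 33. Peak number chose the band, so these shares say how its excess is laid out and not that it is there.

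**Figure D1:**
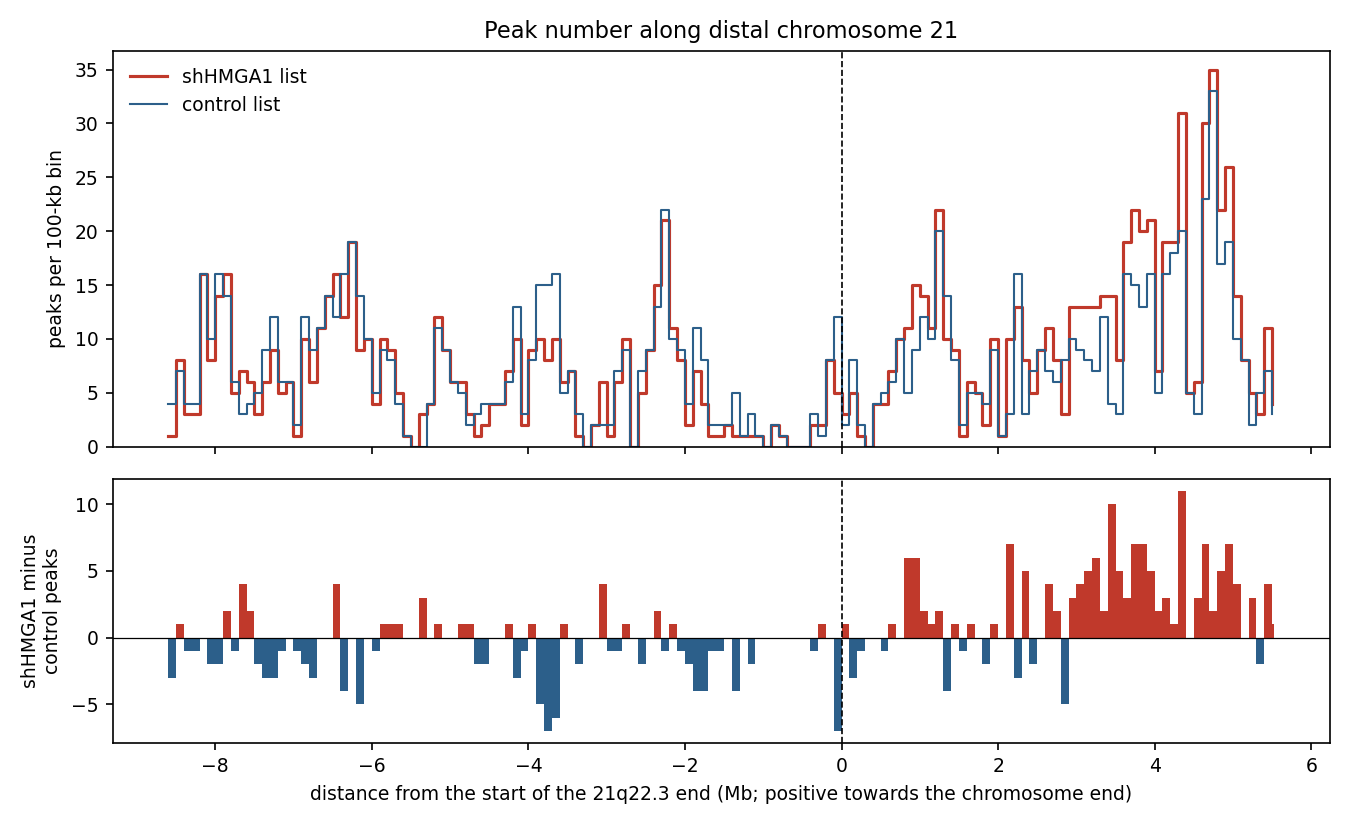
Peaks per 100-kb bin in the shHMGA1 and control lists (top, steps) and their difference (bottom, bars), against distance in Mb from the start of the 21q22.3 end, marked by the dashed line; the last bin is shorter. Right of the line 38 bins hold more shHMGA1 peaks and 10 hold fewer, while left of it 20 hold more and 38 hold fewer.

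The bin with the largest difference, 46.9 to 47.0 Mb, held 31 shHMGA1 and 20 control peaks. Next was 46.0 to 46.1 Mb with 14 shHMGA1 peaks and 4 control peaks, of which 10 and 1 were unshared. A difference of 7 peaks was reached in the bins starting at 44.7 Mb (10 shHMGA1 and 3 control peaks), 46.3 Mb (22 and 15), 46.4 Mb (20 and 13), 47.2 Mb (30 and 23) and 47.5 Mb (26 and 19). The bins that went the other way were fewer, and their differences were smaller. The lowest was 45.4 to 45.5 Mb with 3 shHMGA1 and 8 control peaks, followed by 43.9 to 44.0 Mb with 10 and 14. The bins starting at 42.7 Mb (5 shHMGA1 and 8 control peaks) and 44.8 Mb (13 and 16) shared the next place.

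Neighbouring bins went the same way over long stretches. From 45.5 to 47.0 Mb, 15 bins in a row held more shHMGA1 peaks, 246 against 172 in control cells, a ratio of 1.43. The run was picked for this direction, so its ratio is above 1 by choice. In this run 106 peaks were unshared in shHMGA1 and 26 in control cells. Shorter runs went from 47.1 to 47.7 Mb (6 bins, 133 shHMGA1 and 105 control peaks) and from 43.4 to 43.9 Mb (5 bins, 73 and 56). No run of 3 or more bins in the end held fewer shHMGA1 peaks. In the neighbouring 8.6 Mb, 4 runs of 3 or more bins held fewer and 1 held more. The 6-bin run from 40.5 to 41.1 Mb was the longest there, with 23 shHMGA1 and 36 control peaks.

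In steps of 1 Mb from the band edge the excess was uneven. The ratio was 1.18 in the first step (60 shHMGA1 and 51 control peaks), 1.01 in the second (90 and 89) and 1.16 in the third (81 and 70). It was 1.52 in the fourth, from 45.6 to 46.6 Mb, with 157 shHMGA1 and 103 control peaks (interval 1.18 to 1.97). The next, from 46.6 to 47.6 Mb, held 200 shHMGA1 and 159 control peaks, a ratio of 1.26 (interval 1.02 to 1.56), and the last 0.53 Mb held 45 and 35. These last 2 full steps together gave 95 of the 126 extra peaks. The intervals of the other steps include 1. In windows aligned to whole Mb, which allow a comparison over the genome, all 5 windows from 43 Mb on held more shHMGA1 peaks, against 16.1% of such windows with at least 20 control peaks. Only the window starting at 46 Mb, with 180 shHMGA1 and 126 control peaks, reached a ratio of 1.3, against 0.518% over the genome.

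The extra shHMGA1 peaks were the least significant ones. All peaks of both lists were divided into 4 equal classes by the −log10 p that the peak caller gave the summit. The lowest class, below 4.30, held 325 shHMGA1 and 197 control peaks of the end, a ratio of 1.65 (interval 1.38 to 1.98). Its difference of 128 peaks is about the whole excess of 126. In the second class there were 106 shHMGA1 and 96 control peaks, and in the third 85 and 77. In the most significant class, above 7.31, the order was turned round, with 117 shHMGA1 and 137 control peaks, a ratio of 0.854 (interval 0.662 to 1.10). Over the whole lists the 4 classes had close ratios, from 0.863 to 0.901. The neighbouring 8.6 Mb also had its highest ratio in the lowest class, 1.10 (159 shHMGA1 and 145 control peaks), and 0.799 in the most significant class (131 and 164).

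Whether the band held more shHMGA1 peaks depended on the low peaks. With only peaks at or above 4.30 in both lists, the end held 308 shHMGA1 and 310 control peaks (ratio 0.994, interval 0.846 to 1.17). At or above the joined median of 5.24 it held 202 and 214 (ratio 0.944, interval 0.775 to 1.15). That value still lay above the whole-list ratio of 0.873 at the same threshold, but its interval includes it. With the 56305 most significant peaks of each list, the end held 203 shHMGA1 and 192 control peaks, a ratio of 1.06 (interval 0.864 to 1.29). With an area of at least 500 it held 304 and 275, a ratio of 1.11 (interval 0.936 to 1.31), against 0.900 over the whole lists. The name of the band as one with more knockdown peaks therefore holds for the deposited lists. For their more significant parts the side of 1 changed with the setting and every one of these intervals includes 1. An excess over 1 is thus not firm there. Set against the whole-list ratio, the interval lay above it with an area of at least 500 (0.900). The intervals included that ratio at or above 4.30 (0.880), at or above 5.24 (0.873) and with equal numbers (1 by construction).

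**Figure D2:**
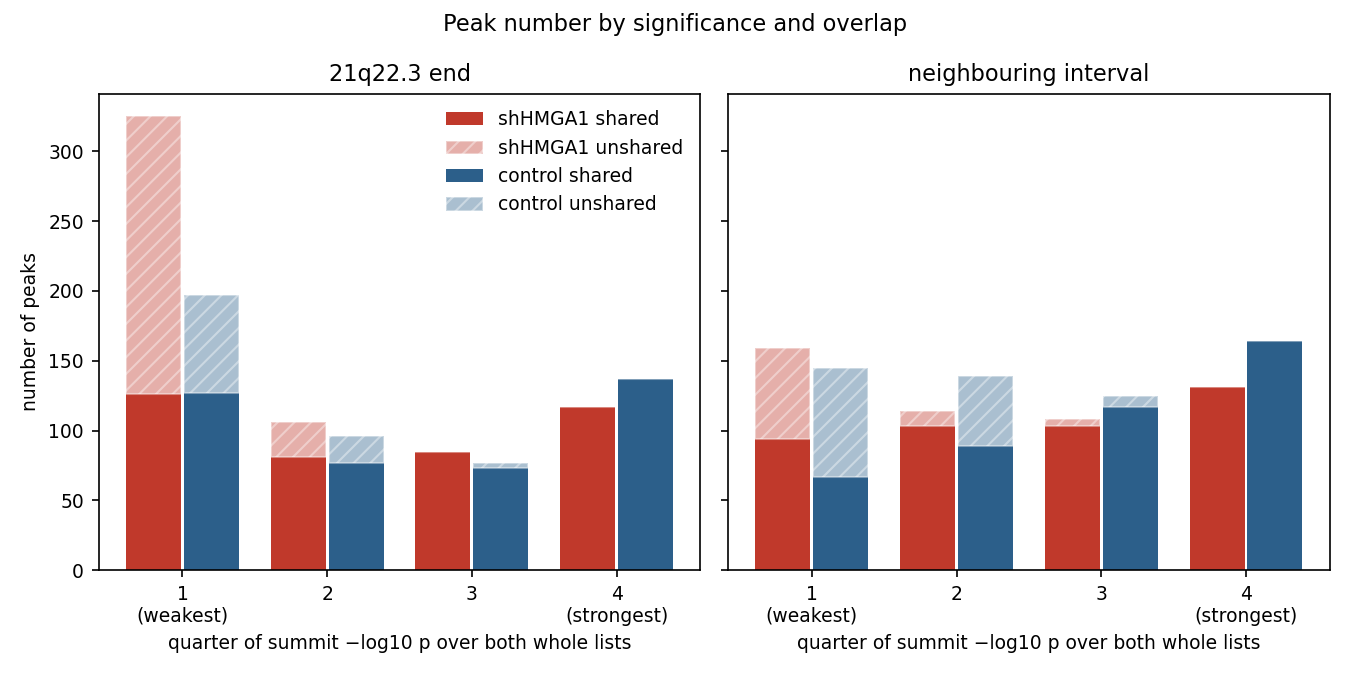
Number of peaks (vertical axis) in 4 classes of summit −log10 p, from weakest to strongest, for the 21q22.3 end (left) and the neighbouring 8.6 Mb (right); solid bars are shared and hatched parts unshared peaks of the shHMGA1 and control lists. In the end the weakest class stands out with 325 shHMGA1 and 197 control peaks, of which 199 and 70 were unshared.

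The band was rich in low and wide peaks under both conditions. The lowest class made up 51.3% of the shHMGA1 peaks and 38.9% of the control peaks of the end, and 31.1% and 25.3% in the neighbouring 8.6 Mb. Median summit −log10 p was 4.21 in shHMGA1 and 4.68 in control cells, against 5.22 and 5.25 in the whole lists. Median width was 693 bp in shHMGA1 and 641 bp in control cells, against 539 and 525 bp in the whole lists. The median area per base was 0.839 in shHMGA1 and 1.04 in control cells, against 1.40 and 1.41 in the whole lists. The area is the peak caller's sum of significance along a peak, so these were broad, shallow peaks.

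Within the lowest class there were more shHMGA1 than control peaks in each width class. Peaks under 500 bp numbered 120 in shHMGA1 and 91 in control cells, a ratio of 1.32 (interval 0.996 to 1.75). Peaks of 500 to under 1000 bp numbered 177 in shHMGA1 and 93 in control cells, a ratio of 1.90 (interval 1.47 to 2.47). Peaks of 1000 bp or more numbered 28 and 13, a ratio of 2.15 (interval 1.08 to 4.53). These intervals overlap, so the order of the ratios is not firm. Over the whole lists the ratios in the lowest class were 0.865, 0.945 and 1.20 in the same width classes, with 1117 shHMGA1 and 934 control peaks in the widest. In the neighbouring 8.6 Mb peaks of 500 to under 1000 bp in the lowest class numbered 80 in shHMGA1 and 52 in control cells, a ratio of 1.54 (interval 1.07 to 2.23). The narrower ones there numbered 76 and 88, a ratio of 0.864, and the wider ones 3 and 5.

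A peak counts as shared when it overlaps the other list, so shared numbers can differ between the lists only through splits and joins, and a difference in peak number falls by construction in unshared peaks. In the end 409 shHMGA1 peaks and 414 control peaks overlapped a peak of the other list by at least 1 bp. Another 224 peaks were found in shHMGA1 cells only, which is 35.4% of that list in the band (exact interval 31.7 to 39.3), against 14.8% over the whole list. In control cells only there were 93, or 18.3% (interval 15.1 to 22.0), against 24.9% over the whole list. Of the 317 unshared peaks 70.7% were shHMGA1-only (interval 65.3 to 75.6), against 37.3% in the neighbouring 8.6 Mb (81 shHMGA1-only and 136 control-only) and 34.5% over the whole lists.

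Unshared peaks were mostly weak, in the band and elsewhere. Of the shHMGA1-only peaks 199 of 224 (88.8%) fell in the lowest class of significance, against 80.2% in the neighbouring 8.6 Mb and 64.1% over the whole list. None reached the joined median of 5.24 (0 of 224, where a limit of 3 counts allows 1.34%), against 5 of 81 in the neighbouring 8.6 Mb. Over the whole list 813 of 16682 shHMGA1-only peaks lay in the third class and 20 in the fourth, a share above the limit of 1.34%. Among control-only peaks, 70 of 93 (75.3%) fell in the lowest class, against 57.4% in the neighbouring 8.6 Mb and 56.1% over the whole list. The joined median was reached by 4 of 93, and by 8 of 136 in the neighbouring 8.6 Mb. Over the whole list 2540 of 31635 control-only peaks lay in the third class and 27 in the fourth. That share was higher than in the band, where it rests on 4 peaks. Median width was 554 bp for shHMGA1-only and 442 bp for control-only peaks. It was 482 and 394.5 bp in the neighbouring 8.6 Mb, and 360 and 353 bp in the whole lists. The shHMGA1-only peaks covered 136 kb and the control-only peaks 45.8 kb. The median gap of an shHMGA1-only peak to the nearest control peak was 2228 bp. Within 5 kb of one lay 162 of 224 (72.3%), against 64.2% in the neighbouring 8.6 Mb. The median gap of a control-only peak to the nearest shHMGA1 peak was 1375 bp. Within 5 kb lay 65 of 93 (69.9%), against 58.1% in the neighbouring 8.6 Mb. Peaks are denser in the band than in that interval, and no share for other sites was computed. Closeness beyond what density gives can therefore not be told.

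**Figure D3:**
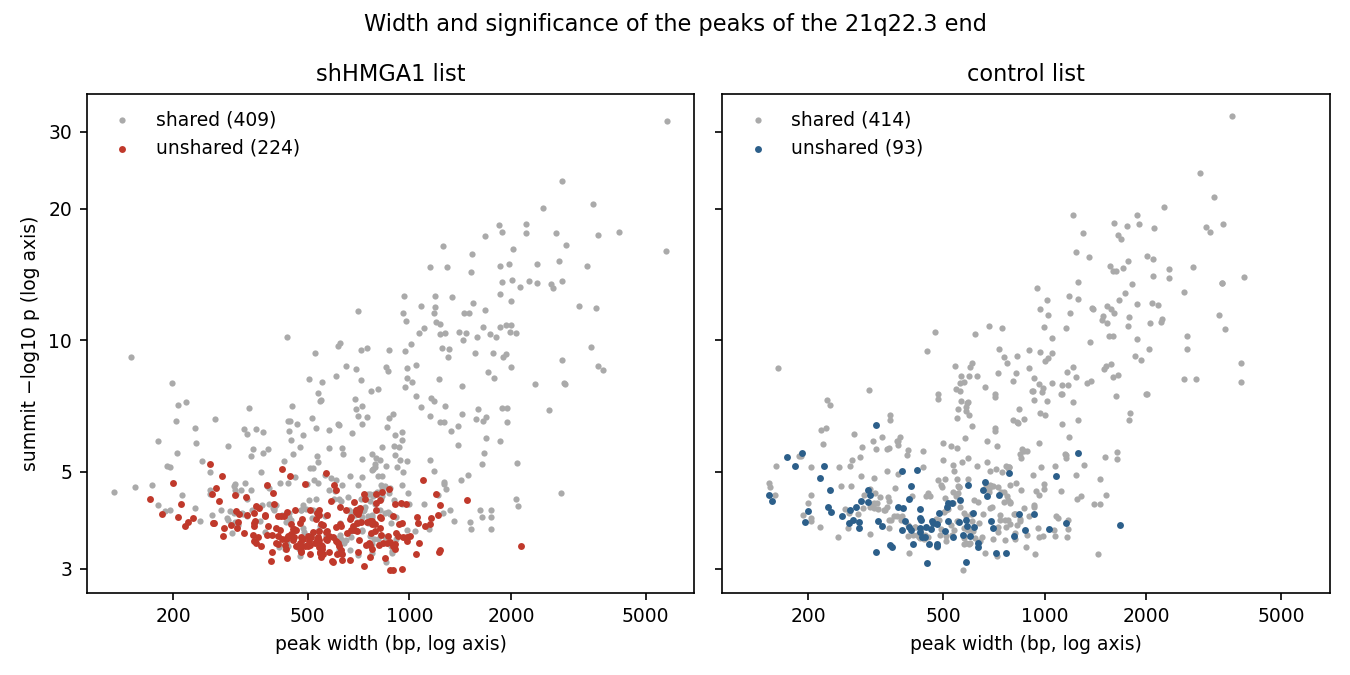
Each point is a peak of the 21q22.3 end, by width in bp (horizontal log axis) and summit −log10 p (vertical log axis), in the shHMGA1 list (left) and the control list (right); grey points are shared and coloured points unshared. The 224 shHMGA1-only peaks lie low, none above 5.20, and the 93 control-only peaks reach 6.39.

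The most significant shHMGA1-only site of the band lay on chromosome 21 from 43605991 to 43606248 (hg19). It spanned 258 bp, had a summit −log10 p of 5.20 and lay 1971 bp from the nearest control peak. It ranked 56853 among all shHMGA1 peaks by significance. Next came the site from 45929362 to 45929781 (420 bp, 5.08), with a control peak 658 bp away, and the site from 43481445 to 43482012 (568 bp, 4.96). The fourth, from 48087665 to 48088109 (445 bp, 4.90), lay near the chromosome end. The last of the 5, from 44204036 to 44204314 (279 bp, 4.90), stood 34162 bp from any control peak. The other 219 shHMGA1-only peaks had lower values than these.

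The most significant control-only site lay from 43960046 to 43960363, spanned 318 bp, had a summit −log10 p of 6.39 and was 2558 bp from the nearest shHMGA1 peak. It lay in the bin from 43.9 to 44.0 Mb, which held fewer shHMGA1 than control peaks. The next ones ran from 43619588 to 43619779 (192 bp, 5.53), from 46256563 to 46257814 (1252 bp, 5.52), from 43366813 to 43366985 (173 bp, 5.40) and from 42731216 to 42731437 (222 bp, 5.16). The wide one, from 46256563, lay 131 bp from an shHMGA1 peak. The control-only sites were thus, at the top of the order, a little more significant than the shHMGA1-only ones, although fewer in number.

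Sites with exactly 1 peak in each list were slightly wider in shHMGA1 cells. There were 333 such pairs in the band, with median widths of 754 bp in shHMGA1 and 702 bp in control cells. The shHMGA1 peak was the wider in 192 (57.7%), against 44.8% over all 83581 pairs. The median log2 width ratio was 0.06 (binomial order interval 0.02 to 0.12), against -0.03 over all pairs and -0.01 in the 387 pairs of the neighbouring 8.6 Mb. At least 1.3 times wider in shHMGA1 were 79 pairs (23.7%, against 15.5% over all pairs), and at least 1.3 times narrower were 51 (15.3%, against 20.9%). The shift was small beside the spread of single sites, whose quartiles were -0.17 and 0.37. It was not even along the band. In the 1-Mb steps from the band edge the median was -0.07, 0.06, 0.0004, 0.13 and 0.11, and in the last 0.53 Mb 0.12. With peaks above the joined median only, or with equal numbers of peaks, the median was 0.03 and its interval included 0.

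Taken over all its pairs, the band did not share the drop in area seen over the lists. Its most significant pairs did stand lower. In the 111 pairs of the most significant class the median log2 area ratio was -0.06 (interval -0.13 to -0.01). That interval includes the -0.11 of this class over all pairs. The median area of a pair was 722 in shHMGA1 and 693 in control cells, and the median log2 area ratio was 0.01 (interval -0.05 to 0.05). Over all pairs it was -0.14 and in the neighbouring 8.6 Mb -0.18 (interval -0.23 to -0.11). In the 1-Mb steps of the band it was -0.19, 0.03, -0.003, 0.14 and 0.01, and in the last 0.53 Mb -0.05. The first step was thus as low as the neighbouring interval. The area was the higher in shHMGA1 in 168 of 333 pairs (50.5%), against 37.2% over all pairs and 32.0% in the neighbouring 8.6 Mb. At least 1.3 times higher in shHMGA1 were 73 pairs (21.9%, against 14.8% over all pairs), and at least 1.3 times lower were 61 (18.3%, against 31.1%). Area per base was lower in shHMGA1, with a median log2 ratio of -0.08 against -0.09 over all pairs. Against all pairs, the pairs of the band thus stood higher in width, by more than in area per base. The summit −log10 p was the higher in shHMGA1 in 135 pairs (40.5%, against 35.9% over all pairs). Areas depend on read depth, which is unknown, so each value is to be read against that of all pairs. Paired summits lay a median of 30 bp apart in the band and 20 bp over all pairs.

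**Figure D4:**
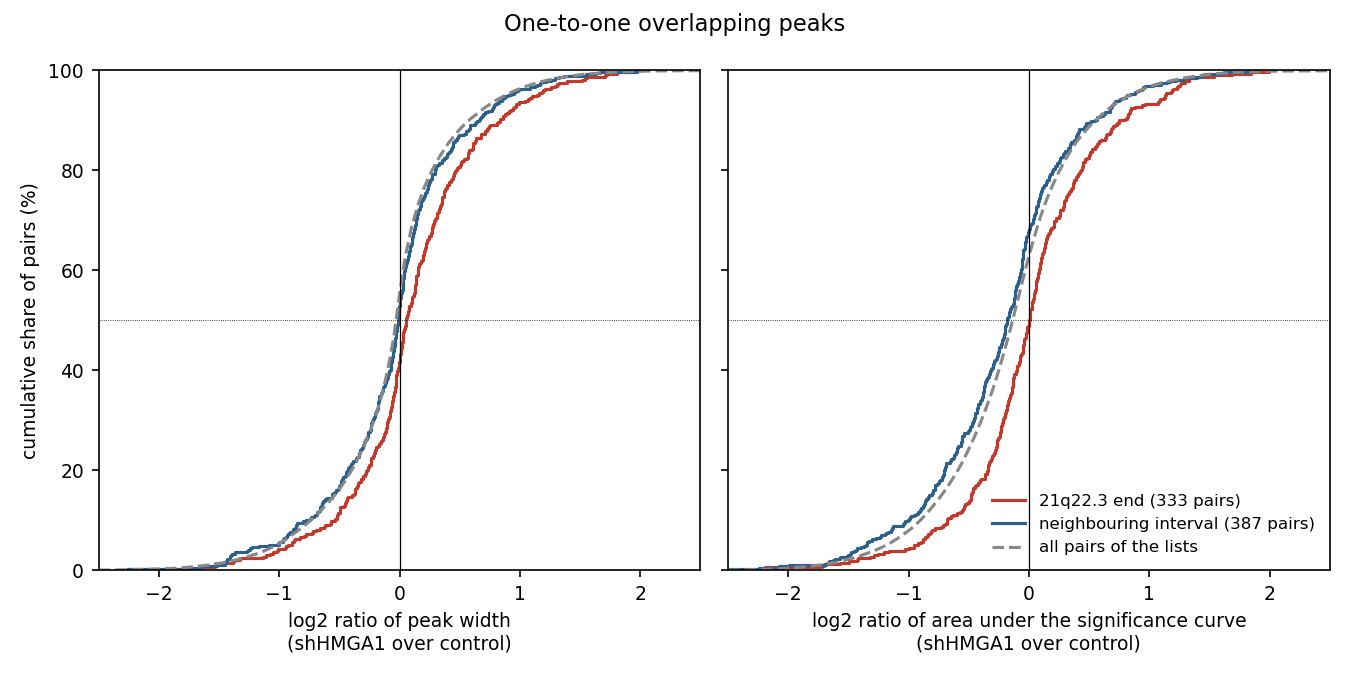
Cumulative share of one-to-one pairs (vertical axis, %) by log2 ratio of width (left) and of area under the significance curve (right), shHMGA1 over control, for the 21q22.3 end, the neighbouring 8.6 Mb and all pairs of the lists. The curve of the end lies right of the other curves over most of its course, with medians of 0.06 for width and 0.01 for area.

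Pairs were also compared by significance. No steady order was seen in width. The median log2 area ratio fell from the lowest class to the most significant one, though the intervals of neighbouring classes overlap. Pairs were put in the classes above by the higher of their summit values. In the lowest class, with 69 pairs, the median log2 width ratio was 0.27 (interval -0.01 to 0.43) and the median log2 area ratio 0.17 (interval 0.01 to 0.30). In the second class, with 71 pairs, the median log2 width ratio was 0.03 (interval -0.04 to 0.16), and in the third, with 82 pairs, 0.12 (interval 0.02 to 0.21). Their area medians were 0.12 (interval -0.10 to 0.30) and -0.01 (interval -0.16 to 0.17). In the most significant class, with 111 pairs, the medians were 0.01 for width (interval -0.04 to 0.06) and -0.06 for area (interval -0.13 to -0.01). Over all pairs the area medians were -0.06, -0.12, -0.22 and -0.11 from the lowest to the most significant class.

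The pairs with the largest mean area had close areas in the lists. Widths differed more than areas except in the pair at 43883948, and by far the most in the pair at 47646912. The first of these pairs ran from 44393093 to 44395919 in shHMGA1 and from 44393362 to 44396238 in control cells. Its widths were 2827 and 2877 bp, its summit −log10 p 23.1 and 24.2, and its log2 area ratio 0.01. The pair from 47646912 to 47651075 in shHMGA1 and from 47646956 to 47649966 in control cells was 4164 and 3011 bp wide, with summit values of 17.7 and 18.2. The next pairs began, in shHMGA1, at 47877607 (2482 bp, against 2256 bp in control), 45758080 (1674 bp, against 1754 bp) and 43883948 (2618 bp, against 2588 bp). Log2 area ratios of these 5 pairs ran from -0.004 to 0.06, and log2 width ratios from -0.07 to 0.47, with 0.14 the next highest. The most significant peak of each list in the band, named after its values were seen, lay at a site that was no one-to-one pair. The site ran from 47599768 to 47605544 in shHMGA1 (5777 bp, summit −log10 p 31.8) and overlapped 2 control peaks, from 47600391 to 47601790 (1400 bp, 4.23) and from 47601955 to 47605549 (3595 bp, 32.6).

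Of the 10 pairs with the largest changes of width, 4 had a summit above the joined median in at least 1 list. Of these, 1 was above the third quartile of 7.31. Among the 333 pairs of the band, 82 lay in the third class and 111 in the most significant one. Over all 83581 pairs these were 28691 and 30500. The named pairs thus lay mostly in the lower classes, though 10 pairs are few. The most widened pair ran from 45174667 to 45175511 in shHMGA1 (845 bp) and from 45175027 to 45175243 in control cells (217 bp), 3.89 times as wide, with summit −log10 p of 4.02 and 3.74. Next were the pairs beginning in shHMGA1 at 43927440 (536 bp, against 153 bp in control), 46317348 (951 bp, against 288 bp), 43030193 (619 bp, against 190 bp) and 43111434 (918 bp, against 311 bp). Their summit values in shHMGA1 were 5.26, 6.17, 6.42 and 5.13, against 4.72, 5.71, 5.45 and 4.22 in control cells. The most narrowed pair ran from 47253499 to 47253759 in shHMGA1 (261 bp) and from 47252516 to 47253762 in control cells (1247 bp), with summit values of 3.97 and 4.33. The others began in shHMGA1 at 47374271 (173 bp, against 540 bp in control), 46740482 (294 bp, against 851 bp), 42655246 (207 bp, against 599 bp) and 47547034 (375 bp, against 1077 bp). Their summit values in shHMGA1 were 4.68, 4.07, 7.12 and 3.65, against 5.02, 4.55, 8.27 and 3.96 in control cells. The narrowed pair at 42655246 was the most significant of these 10.

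Splitting and joining of peaks between the lists were about as common in one direction as in the other. In the end 32 shHMGA1 peaks (5.06%) overlapped 2 or more control peaks, and 27 control peaks (5.33%) overlapped 2 or more shHMGA1 peaks. Over the whole lists these shares were 3.72% and 3.58%, and in the neighbouring 8.6 Mb 3.91% and 2.62%. The shares of the band were higher, but they rest on 32 and 27 peaks. No interval was computed for them, so the difference is not firm. Merging peaks within 150 bp of each other left 586 shHMGA1 and 478 control peaks, a ratio of 1.23.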

How the data were processed

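Each group of 3 samples had 1 deposited narrowPeak list, assigned to its group by the list's own name (shHMGA1 or Con). Per the submitters' processing notes, Genrich called the peaks and the build was hg19. Caller settings, aligner and how the samples of a group were joined: not given in the sources used here. The authors' −log10 p is that of the summit and is not adjusted. The signal that the authors deposited in column 7 is the area under a peak's significance curve, with a minimum just above 200.0. The deposited score is the area per base times 1000, capped at 1000, in all control rows and in 112608 of 112610 shHMGA1 rows. Positions are whole bases on hg19, printed from 1, and have no other unit in the deposited lists.

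Peaks were placed by summit. Shared peaks overlapped by at least 1 bp. Pairs overlapped exactly 1 peak each way, with both summits in the interval. Intervals are 95% and exact (Clopper-Pearson for shares, conditional binomial for ratios, order statistics for medians; a count of 0 is given the limit of 3 counts), cover counting error only and are not tests. Bands came from the hg19 table of the R package circlize. Counting and pairing were checked on simulated lists. Software was Python 3.11.15 with pandas 2.3.3, numpy 2.4.6, matplotlib 3.10.9 and scipy 1.17.1. Named sites were, in each list, the 5 unshared peaks with the highest summit −log10 p, the 5 most widened, 5 most narrowed and 5 largest pairs, and the bins with the 5 largest and 3 smallest differences, with ties added. The members and lists were chosen with earlier results of these data known. The gene lists of the design, 52 genes of this band, were not tested, because no hg19 annotation was used here. All 52 were found on chromosome 21 in the RefSeq table (GRCh38.p14), which gave names and order only.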

Additional observations from a re-analysis of the deposited data

How the results depend on the processing

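Of 66 values recomputed under alternatives, 46 stayed within the counting interval of the reported value (counts of bins: within 1.5 times; covered bases: the interval of the ratio of numbers, scaled), 16 moved beyond it and 4 turned round. Among the 16 are the bins above the joined median and above the first quartile, where fewer bins were higher than lower in shHMGA1. The thresholds at the joined first quartile, and on peaks above the joined median set against the whole other list, were added after the data were seen. In the 21q22.3 end the ratio of peak numbers was 0.944 above the joined median, 0.994 above the joined first quartile, 1.11 with an area of at least 500 and 1.06 with equal numbers. The ratio of covered bases was 1.03, 1.07 and 1.10 above the joined median, above the first quartile and with equal numbers. The shHMGA1-only share of unshared peaks was 34.7% above the joined median (17 shHMGA1-only and 32 control-only), 62.0% with an area of at least 500, 59.1% with equal numbers, 62.3% with reciprocal overlap of 50%, and 0% (0 against 4) for peaks above the joined median set against the whole other list. In the neighbouring interval it was 20.2% above the joined median and 25.3% with an area of at least 500. Bins with more shHMGA1 peaks numbered 9 above the joined median (22 with fewer), 17 above the first quartile (20 with fewer), 20 with an area of at least 500, 16 with equal numbers, 62 in bins of 50 kb and 15 in bins of 250 kb, which hold other numbers of bins by construction. Leaving out the bin with the largest excess gave a ratio of 1.24, and leaving out the last 500 kb 1.25. The median width and area ratios of pairs stayed within their intervals under every alternative run on them, but in the end the interval of the width median included 0 above the joined median (-0.003 to 0.08) and with equal numbers (-0.03 to 0.08). No paired analysis was possible because the lists hold no columns per sample, so that leaving out a replicate could not be done either. Unknown read depth limits every count of low peaks.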
